A study of Mus musculus with 8 samples.

Results

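The genes described here encode collagens, the laminins, nidogens and proteoglycans of basement membranes, and a few matrix glycoproteins and collagen-processing proteins. The rule that chose them reads gene symbols and no measured value, and it was written with earlier results of these data known: every Col gene with a chain number, the laminin alpha, beta and gamma chains, Nid1, Nid2, Hspg2, Agrn, Fn1, Tnc, Sparc, Pcolce and Pcolce2, leaving out the collagen V genes Col5a1, Col5a2 and Col5a3. This gave 61 of the 27554 genes in the count table, of which 44 passed a filter on low counts and were tested. The RNA was polyadenylated RNA of muscle stem cells, sorted from mouse hindlimb and sequenced as single reads. Every group carried 2 reporter alleles on the C57BL/6NTac background. Pax7tm3955(T2A-ZsGreen)Tac makes ZsGreen together with Pax7, which defines muscle stem cells, and Myf5tm3956(T2A-E2Crimson)Tac makes E2Crimson together with Myf5, an early myogenic factor. Cells positive for Pax7 were sorted from the upper (Myf5High) and the lower (Myf5Low) end of E2Crimson brightness. The groups numbered 4, female Myf5High, female Myf5Low, male Myf5High and male Myf5Low, with 2 libraries each, and each library came from a pool of 4 mice. The age of the mice, a treatment and the copy number of the alleles are not given in the sources used here.

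A resting muscle stem cell sits between the muscle fibre and a basement membrane. That sheet is built from networks of collagen IV and laminin, joined by nidogen and by the heparan sulfate proteoglycans perlecan and agrin. Outside it lie fibrillar collagens such as collagen I and III, and collagen VI forms microfilaments at the border of the membrane. Collagens are made as procollagens whose ends are cut off by proteases in the extracellular space, a step that procollagen enhancer proteins speed up. Muscle stem cells are known to make part of their own matrix and to bind it through integrins, dystroglycan and syndecans.

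Promoter sequences are shown for the 2 members called between the fractions and for the collagen IV pair that share a start region, since Myf5 belongs to a family of factors that bind the E-box. They cover 250 bases before to 50 bases after the annotated start, were taken from RefSeq (GRCm38.p6) and are written 5′ to 3′ on the strand of the gene. Of the 61 members, 45 had such an entry, with 51 starts in all. In Pcolce2 (chr9:95637378-95637677, plus strand) and Col16a1 (chr4:130047590-130047889, plus strand), capitals mark the E-box, CANNTG, whose fixed letters read the same on both strands.
Pcolce2: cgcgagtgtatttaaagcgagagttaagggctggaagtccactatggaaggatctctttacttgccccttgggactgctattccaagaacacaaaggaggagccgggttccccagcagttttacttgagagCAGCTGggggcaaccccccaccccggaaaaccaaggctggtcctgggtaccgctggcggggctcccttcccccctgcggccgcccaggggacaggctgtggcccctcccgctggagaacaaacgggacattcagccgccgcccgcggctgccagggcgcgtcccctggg
Col16a1: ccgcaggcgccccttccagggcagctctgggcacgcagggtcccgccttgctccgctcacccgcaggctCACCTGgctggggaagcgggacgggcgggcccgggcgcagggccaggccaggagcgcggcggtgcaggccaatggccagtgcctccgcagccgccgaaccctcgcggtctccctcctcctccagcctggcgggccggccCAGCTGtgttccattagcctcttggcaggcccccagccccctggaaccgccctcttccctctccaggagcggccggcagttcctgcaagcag
Pcolce2 had 1 E-box, of the form CAGCTG, and Col16a1 had 2, of which 1 was CAGCTG. In Col4a1 (chr8:11312777-11313076, minus strand) and Col4a2 (chr8:11312555-11312854, plus strand), capitals mark the CCAAT box and the GC box, GGGCGG, on either strand.
Col4a1: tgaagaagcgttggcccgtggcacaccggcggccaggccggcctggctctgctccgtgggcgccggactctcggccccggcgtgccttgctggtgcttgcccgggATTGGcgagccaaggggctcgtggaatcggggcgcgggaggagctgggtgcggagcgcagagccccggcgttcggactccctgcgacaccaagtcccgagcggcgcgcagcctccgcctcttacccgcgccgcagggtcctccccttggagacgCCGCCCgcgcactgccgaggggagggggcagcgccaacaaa
Col4a2: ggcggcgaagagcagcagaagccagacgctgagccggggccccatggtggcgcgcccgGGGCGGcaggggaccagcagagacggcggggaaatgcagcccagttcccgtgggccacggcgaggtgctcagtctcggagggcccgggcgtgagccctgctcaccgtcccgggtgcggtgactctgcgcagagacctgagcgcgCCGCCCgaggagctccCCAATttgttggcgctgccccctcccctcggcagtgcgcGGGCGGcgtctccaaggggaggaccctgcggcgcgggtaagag
The annotated starts of Col4a1 and Col4a2 lay 21 bases apart on opposite strands, and their windows shared 78 bases. Col4a1 had 1 CCAAT box and 1 GC box, and Col4a2 had 1 and 3. The marked motifs did not overlap each other in any of the 4 windows. An E-box was found in 60.8% of the members' windows and in 72.3% of all 32851 windows of the same length. CAGCTG, which is counted within the E-box, was in 19.6% of the members' windows and 16.3% of all. The GC box was in 62.7% of the members' windows and 35.7% of all, the CCAAT box in 27.5% and 37.4%, and GTGGGAA, a core site of the Notch effector RBPJ, in 9.8% and 6.38%. Both strands were searched, and a match in these letters describes the sequence only.

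Counts assigned to genes were 3140361 to 4238427 per library, so that 3 counts, taken as the smallest detectable level, came to 0.672 to 0.986 CPM (counts scaled to the normalised library size). The gene Gm42418 alone took 20.1% to 28.8% of the counts assigned to genes. Without it and the mitochondrial genes, the same members were called in every comparison. Pax7 was at 1001 to 1498 CPM in all 8 libraries. Xist and Ddx3y matched the labelled sex in every library, and Myf5 was called higher in Myf5High over both sexes (log2 fold change 1.19 with SE 0.265, edgeR adjusted p 0.0284). Its fractions did not overlap in females, at 128 and 116 CPM in Myf5High and 25.0 and 49.9 CPM in Myf5Low. In males they overlapped, at 73.7 and 39.5 CPM in Myf5High and 41.9 and 28.7 CPM in Myf5Low, and Myf5 was not called (log2 fold change 0.69 with SE 0.374, edgeR adjusted p 0.808). The labels name a pool for each library by sex, number and fraction, and a Myf5High and a Myf5Low library of the same sex and number are called a pair below, although the labels do not say outright that they came from the same mice. The 61 genes took 0.372% to 0.717% of the counts of a library. The 2 replicates of each group were further apart than counting noise (chi-square per degree of freedom 8.52 to 26.5), so no 2 of them looked like a duplicate deposit of 1 library, and each was counted as a separate sample because the labels name separate pools. Differences below are log2 fold changes from a negative binomial fit of all 8 libraries (edgeR quasi-likelihood test, two-sided, Benjamini-Hochberg adjustment over 11730 genes), and a gene is called where the adjusted p is under 0.05. Where 4 values are given for a sex, they are the Myf5High replicates 1 and 2 and then the Myf5Low replicates 1 and 2. In these bulk samples, fewer cells of a type and less RNA per cell cannot be told apart.

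Levels are compared between genes per kb of exon. Sparc, which encodes a collagen-binding glycoprotein, was the highest, with a mean level of 758 ± 281 CPM per kb (SD, n = 8). Col4a1 followed at 50.5 ± 18.3, then Col3a1 at 27.8 ± 13.5, Hspg2 (perlecan) at 18.7 ± 5.36 and Lamb2 at 18.3 ± 2.55 CPM per kb. Sparc was above Col4a1, and Col4a1 above Col3a1, in 8 of 8 libraries, while the levels of Col3a1, Hspg2 and Lamb2 overlapped within their spread. Col6a1, Col4a2, Lamc1, Col15a1 and Col1a1 came next, with means of 13.1 to 16.0 CPM per kb, and did not differ beyond theirs.

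Chains that assemble into 1 trimer, and alternative chains of the laminins, were present at unequal levels per kb. How many copies of each chain a trimer holds was not considered. Col4a1 exceeded Col4a2, its partner in the common collagen IV trimer, in 8 of 8 libraries, with a mean ratio of 3.25 (2.42 to 4.02). The remaining collagen IV chains, Col4a4, Col4a5 and Col4a6, were each at most 1.21 CPM per kb in any library, and Col4a3 did not pass the filter. Col6a1 exceeded Col6a2 with a mean ratio of 3.37 (1.59 to 4.96) and Col6a3 with a mean ratio of 9.23 (4.97 to 15.8). The first ratio rests in part on the annotated exon lengths, 4380 bases for Col6a1 and 8326 for Col6a2. Without division by length their means were 69.9 and 44.7 CPM, and in male Myf5High replicate 1 Col6a2 was the higher, at 103 against 86.5 CPM. Among the laminins, Lama2, Lamb2 and Lamc1 were the highest alpha, beta and gamma chain. Lamb2 exceeded Lamb1, an alternative beta chain, by a mean ratio of 11.1 (5.94 to 29.3). Lama2 exceeded Lama5, an alternative alpha chain, by 8.16 (4.13 to 12.2). The ratio of Lamc1 to Lama2 averaged 2.10 (1.14 to 3.21). The ratio of Col1a1 to Col1a2 averaged 4.27 (1.38 to 8.08), lowest in male Myf5Low replicate 1 and highest in female Myf5High replicate 2. The exon lengths of this pair of chains were 6563 and 12426 bases, and without division by length Col1a2 was the higher in female Myf5High replicate 1 and male Myf5Low replicate 1.

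**Figure D1:**
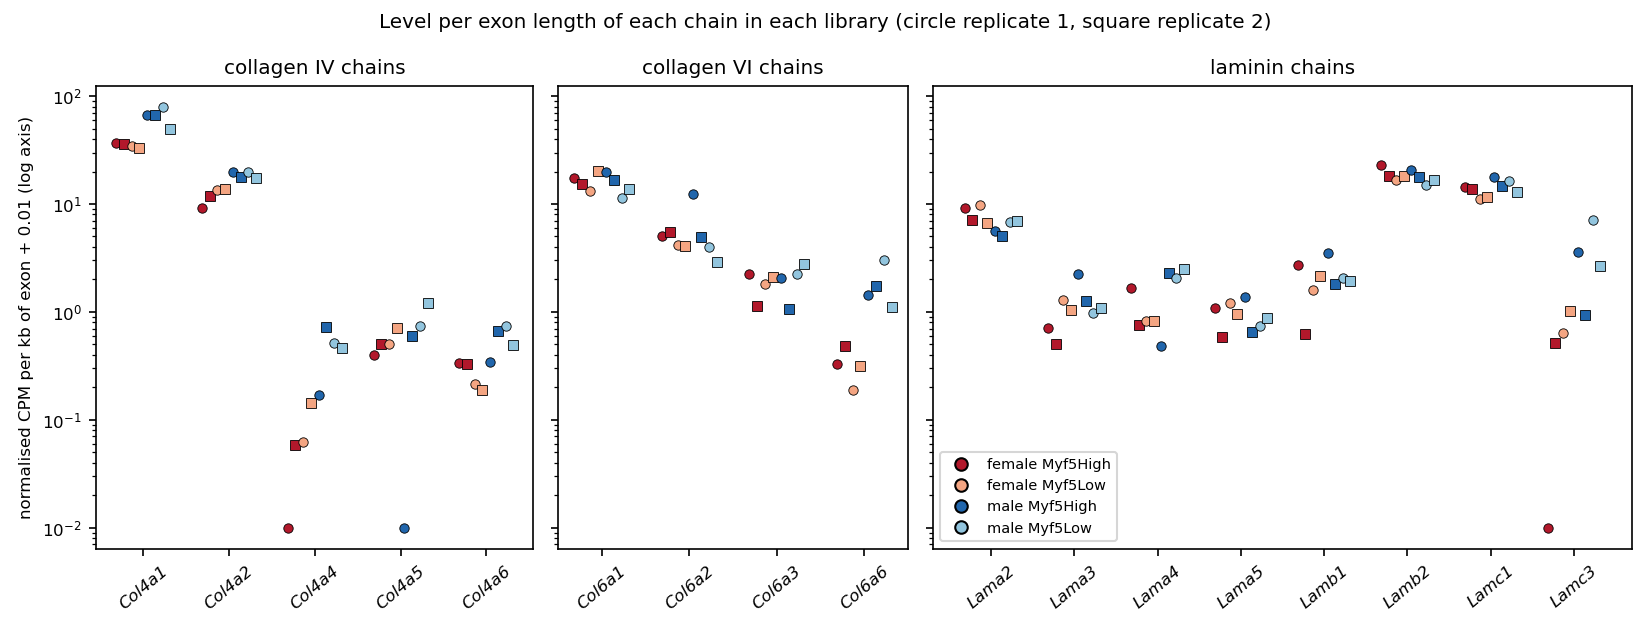
Level of the collagen IV, collagen VI and laminin chains described in the text in each of the 8 libraries, as normalised CPM per kb of exon plus 0.01 on a log axis (circle replicate 1, square replicate 2, colours by group). Col4a1, Col6a1 and Lamb2 have the highest means among the collagen IV, collagen VI and laminin chains, and Col4a1 lies at 33.1 to 36.9 CPM per kb in females and 49.5 to 79.2 in males.

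Between Myf5High and Myf5Low over both sexes, 2 of the 44 tested members were called and both were higher in Myf5High. These were Pcolce2, whose protein enhances the cutting of procollagen ends, and Col16a1, a collagen that associates with fibrils. Over all 11730 genes tested, 1.2% were called in either direction and 0.767% were higher. The median log2 fold change was 0.12 over the 44 members and -0.02 over all genes tested. Of the 44, 24 had a log2 fold change above 0, against 48.1% of all genes.

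Pcolce2 (ENSMUSG00000015354, chromosome 9, 95637601 to 95698096, GRCm38) was at 28.5 and 18.6 CPM in Myf5High females, 1.65 and 0.235 CPM in Myf5Low females, 14.6 and 11.5 CPM in Myf5High males and 5.82 and 9.08 CPM in Myf5Low males. The counts behind the female Myf5Low values were 6 and 1, and all 4 Myf5High libraries lay above all 4 Myf5Low libraries. Its level was 6.63-fold higher in Myf5High (log2 fold change 2.73 with SE 0.492, edgeR adjusted p 0.00609), and it was higher in 4 of 4 pairs. Without female Myf5Low replicate 1 the log2 fold change was 3.63. An additive model of sex and fraction, chosen after seeing the data, ended this call (log2 fold change 2.41, adjusted p 0.0941 in edgeR). Its paralog Pcolce, with a like role, had 15.8, 15.8, 12.9 and 17.4 CPM in the female libraries and 16.3, 14.1, 9.86 and 16.0 CPM in the male libraries, and its fractions overlapped (log2 fold change 0.15 with SE 0.340, edgeR adjusted p 0.961). Fbxo24 covers 2.93% of the exons of Pcolce on the same strand, so the count of Pcolce is uncertain there.

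Col16a1 (ENSMUSG00000040690, chromosome 4, 130047840 to 130099283) had 51.7 and 88.6 CPM in Myf5High females, 19.2 and 30.1 CPM in Myf5Low females, 85.0 and 50.6 CPM in Myf5High males and 28.0 and 33.4 CPM in Myf5Low males. Every Myf5High library lay above every Myf5Low library, in females and in males. Its level was 2.51-fold higher in Myf5High (log2 fold change 1.33 with SE 0.265, edgeR adjusted p 0.0134) and higher in 4 of 4 pairs. The call was lost without female Myf5High replicate 2 (log2 fold change 1.10, adjusted p 0.0989 in edgeR), without female Myf5Low replicate 1 (log2 fold change 1.18, adjusted p 0.0652 in edgeR), and in a test against a minimum fold of 1.5 (edgeR adjusted p 0.180). Leaving out male Myf5High replicate 2 raised the number of called members to 5, adding Col3a1, Col6a2 and Nid2.

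Libraries of the fractions did not overlap for 3 members that were higher in Myf5High, Pcolce2, Col16a1 and Col6a2, and this held for 2.36% of all genes tested. Col6a2, a chain of the collagen VI trimer, had 42.4 and 45.6 CPM in Myf5High females, 34.3 and 33.9 CPM in Myf5Low females, 103 and 41.4 CPM in Myf5High males and 33.2 and 23.9 CPM in Myf5Low males. It was higher in Myf5High in 4 of 4 pairs but was not called (log2 fold change 0.86 with SE 0.275, edgeR adjusted p 0.208). Col6a1, its partner chain, overlapped between the fractions and was not called, at 76.0 and 67.2 CPM in Myf5High females, 57.4 and 88.4 CPM in Myf5Low females, 86.5 and 72.3 CPM in Myf5High males and 50.2 and 60.9 CPM in Myf5Low males (log2 fold change 0.24 with SE 0.214, edgeR adjusted p 0.850). Col6a3, the third common chain, had 26.5, 13.5, 21.7 and 24.9 CPM in the female libraries and 24.7, 12.5, 26.7 and 33.4 CPM in the male libraries (log2 fold change -0.45 with SE 0.317, edgeR adjusted p 0.775).

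None of the 5 tested fibrillar collagen genes was called between the fractions. Col1a1, the main chain of collagen I, had 38.5 and 60.8 CPM in Myf5High females, 41.5 and 90.1 CPM in Myf5Low females, 244 and 56.5 CPM in Myf5High males and 44.4 and 114 CPM in Myf5Low males, with male Myf5High replicate 1 far above the rest (log2 fold change 0.26 with SE 0.374, edgeR adjusted p 0.928). Col3a1, the chain of collagen III, had 224, 245, 145 and 230.5 CPM in the female libraries and 581, 275, 288 and 195 CPM in the male libraries, and the same library was highest (log2 fold change 0.57 with SE 0.232, edgeR adjusted p 0.394). Col1a2, the partner chain, had 43.0, 14.3, 32.4 and 46.3 CPM in the female libraries and 58.8, 21.4, 60.7 and 53.5 CPM in the male libraries and was not highest there. The median log2 fold change was 0.26 over the 5 fibrillar genes, -0.17 over the 5 tested collagen IV chains and -0.09 over the 4 tested laminin alpha chains.

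The other laminin and basement membrane genes overlapped between the fractions. Lama2, the main laminin alpha chain of muscle, had 151, 116, 159 and 109 CPM in the female libraries and 91.0, 82.2, 111 and 113 CPM in the male libraries (log2 fold change -0.19, edgeR adjusted p 0.885). Lamb2, a beta chain, had 140.4, 110.0, 102 and 111 CPM in the female libraries and 127, 109, 91.2 and 101 CPM in the male libraries, and Lamc1, the common gamma chain, had 119, 113, 92.3 and 95.7 CPM in the female libraries and 148, 123, 136 and 106 CPM in the male libraries. None of these chains separated the fractions. Hspg2 had 365, 377, 219 and 293 CPM in the female libraries and 290.3, 172, 231 and 192 CPM in the male libraries, with the highest values in female Myf5High (log2 fold change 0.33 with SE 0.196, edgeR adjusted p 0.679). Nid2, a linker of laminin and collagen IV, had 6.14, 7.13, 16.5 and 11.5 CPM in the female libraries and 5.76, 15.8, 30.9 and 23.4 CPM in the male libraries and was not called (log2 fold change -1.21 with SE 0.384, edgeR adjusted p 0.201). Its count is uncertain where Rtraf overlaps it, at 8.45% of its exons on the opposite strand, since the strand setting of the counting is not given in the sources used here.

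In all, 8 of the 44 members were higher in Myf5High in 4 of 4 pairs, against 7.51% of all genes tested, and 4 were lower in 4 of 4, against 8.76%. The 8 were Pcolce2, Col16a1, Col6a2, Col3a1, Col15a1, Col17a1, Col18a1 and Lamc1. The 4 that were lower were Nid2, Col7a1, Lamc3 and Col4a5, none of them called. Col7a1, the collagen of anchoring fibrils, had the smallest p of these 4 (log2 fold change -1.05 with SE 0.308, edgeR adjusted p 0.144). Lamc3, a laminin gamma chain, gave -1.35 (SE 0.600, edgeR adjusted p 0.484) and the collagen IV chain Col4a5 gave -1.10 (SE 0.890, edgeR adjusted p 0.828).

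**Figure D2:**
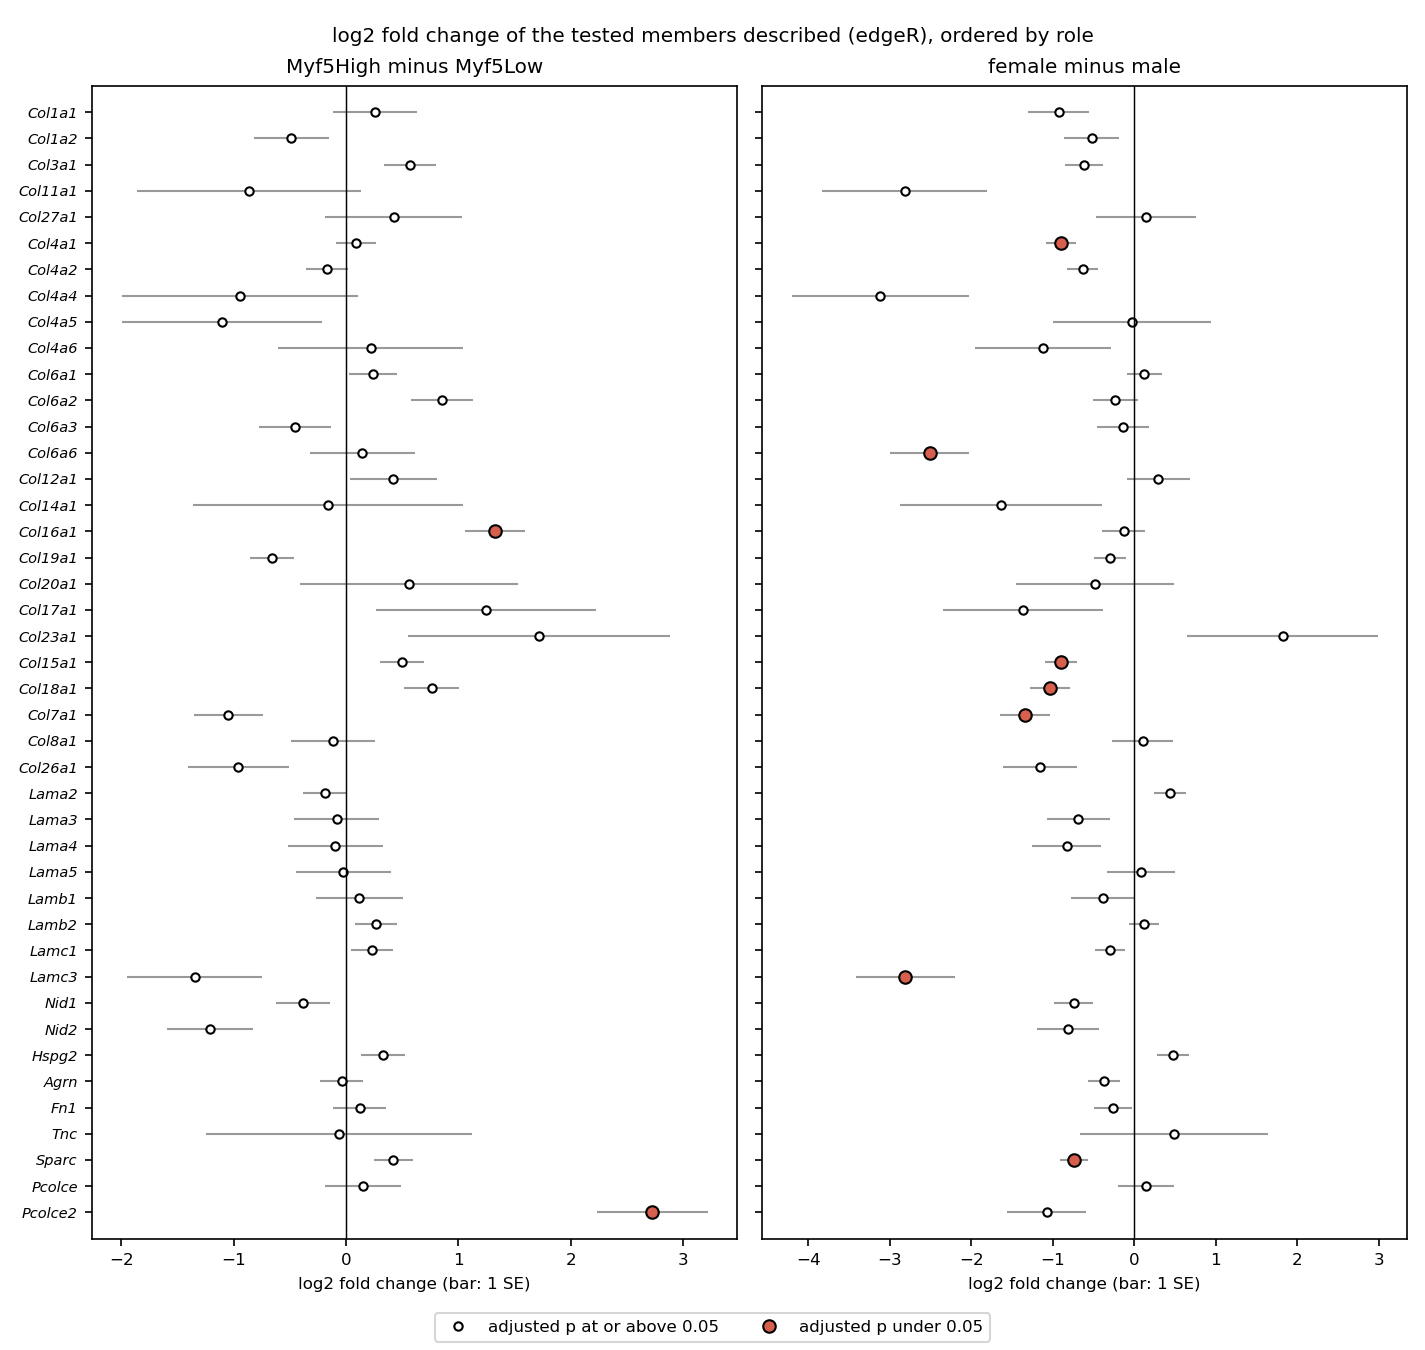
Log2 fold change of the tested members described in the text, with its SE as a bar, ordered by role, for Myf5High minus Myf5Low (left) and female minus male (right), from the edgeR fit. Filled points have an adjusted p under 0.05, 2 on the left and 7 on the right, and on the right all 7 lie below 0.

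Markers of other cell types were read beside these values. The list of fibroblast and fibro-adipogenic markers summed to 1882 to 2134 CPM in Myf5High females, 1180.5 to 1491 in Myf5Low females, 1862 to 2173 in Myf5High males and 1436 to 1577 in Myf5Low males, so the sum was higher in Myf5High in both sexes. Most of that gap came from Cd34, at a mean of 954 CPM in Myf5High and 642 in Myf5Low, and from Dpt, at 444 and 209.8 CPM. The median log2 fold change of the list was 0.12, and those of Ly6a and Mfap5 were -0.60 and -0.67, neither called. Of its 12 genes 10 were tested and 1, Dpt, was called between the fractions (log2 fold change 1.05 with SE 0.176, edgeR adjusted p 0.00327). Cd34, which muscle stem cells also express, was the largest share of the sum, and Pdgfra, a defining marker, was at 0 to 4.33 CPM and did not pass the filter. Of 12 tested myogenic commitment genes, Myog, Mymk and Cdkn1c were called lower in Myf5High. Immune markers summed to 25.2 to 47.9 CPM in Myf5High and 51.9 to 91.5 in Myf5Low of females, and 18.3 to 36.2 and 54.9 to 82.7 in males, with 1 of 7 tested genes, C1qa, called lower in Myf5High. Of 11 tested mural genes, Acta2 was called lower and Des higher in Myf5High. No tested marker of the endothelial (12), glial (6) and tendon (5) lists, nor any of 15 early genes induced by tissue dissociation, was called (smallest edgeR adjusted p 0.0577, 0.571, 0.533 and 0.0505). Of the muscle stem cell list, 2 of 12 were called higher, Myf5 and Calcr. With the pair as a replicate block Calcr was no longer called (edgeR adjusted p 0.0711). The same block added calls for the dissociation gene Ier3 (higher in Myf5High, log2 fold change 1.03, adjusted p 0.00879), the endothelial gene Tek (higher, 0.99, adjusted p 0.0288) and the commitment gene Myod1 (lower, -0.97, adjusted p 0.0486), all by edgeR. The part of other cells in the result for Pcolce2 and Col16a1 was not tested.

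Within the sexes, the fractions were compared to ask whether the difference held in each. In females 2 of 44 members were called, Pcolce2 higher and Col19a1 lower in Myf5High, and 0.332% of all genes were called. Pcolce2 was 25.0-fold higher in Myf5High females (log2 fold change 4.64 with SE 0.767, edgeR adjusted p 0.00644), a value that rests on 6 and 1 counts in the Myf5Low libraries. Its call was lost without female Myf5High replicate 1 (log2 fold change 4.29, adjusted p 0.0737 in edgeR) or female Myf5Low replicate 2 (log2 fold change 3.80, adjusted p 0.131 in edgeR). Without female Myf5Low replicate 1, which leaves the library with 1 count, the log2 fold change rose to 6.45 and the gene was still called. Col19a1, a fibril-associated collagen (ENSMUSG00000026141, chromosome 1, 24261890 to 24587472), had 53.0 and 36.7 CPM in Myf5High females, 124 and 115 CPM in Myf5Low females, 87.2 and 99.6 CPM in Myf5High males and 86.0 and 87.9 CPM in Myf5Low males. Both female Myf5High libraries lay below all 6 others. The level was 2.68-fold lower in Myf5High females (log2 fold change -1.42 with SE 0.287, edgeR adjusted p 0.0363). With the pair as a replicate block the call was lost (log2 fold change -1.44, adjusted p 0.0575 in edgeR), as it was without any 1 of the 4 female libraries (edgeR adjusted p 0.115 to 0.517).

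In males 0 of 44 members were called by edgeR, DESeq2 called 0, and 0.171% of all genes were called by edgeR. At an unadjusted p under 0.05, 7 members (15.9%) and 782 of all genes (6.67%) passed. For males alone, Pcolce2 was not called (log2 fold change 0.81 with SE 0.617, edgeR adjusted p 0.940). Col16a1 gave 1.15 in males (SE 0.372, edgeR adjusted p 0.404) and 1.51 in females (SE 0.378, edgeR adjusted p 0.118). In females it was called by DESeq2, without a filter on low counts, and without either male Myf5High library. Col19a1 in males was at 0.10 (SE 0.279, edgeR adjusted p 1). Whether the difference varied with sex was tested as an interaction, which was called for 0 members, and over all genes the share called was 0%, by edgeR. At an unadjusted p under 0.05, 4 members and 533 genes passed, and DESeq2 called 2 genes and 0 members. Those 4 were Pcolce2, Col19a1, Lama3 and Col12a1. The female difference minus the male one came to 3.83 for Pcolce2 (SE 0.976, edgeR adjusted p 0.917) and to -1.52 for Col19a1 (SE 0.399, edgeR adjusted p 0.917).

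**Figure D3:**
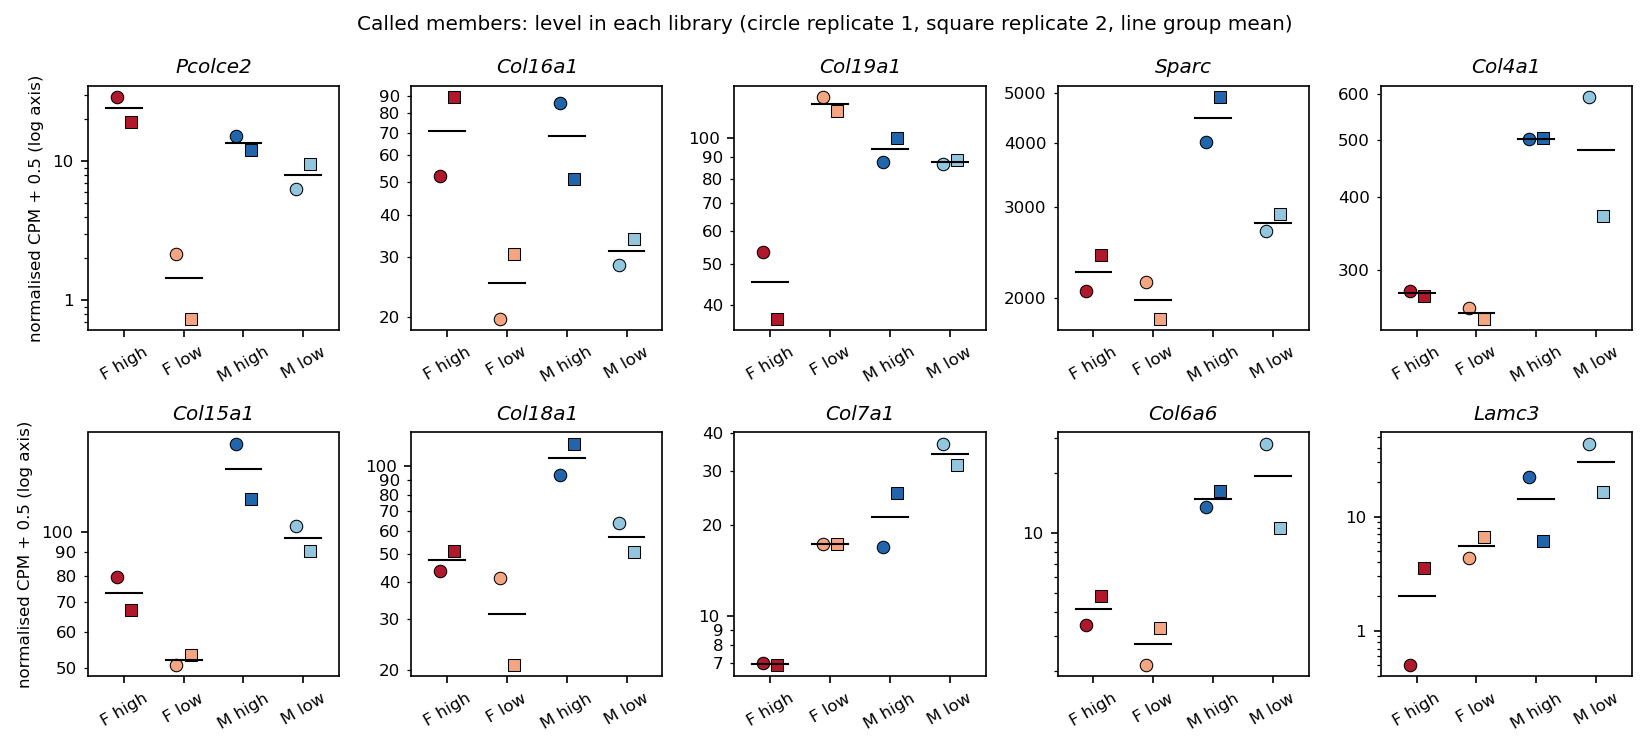
Normalised CPM plus 0.5, on log axes that differ between panels, for the 10 members called in any comparison, in each library (F female, M male, high Myf5High, low Myf5Low). Pcolce2 and Col16a1 are higher in Myf5High, Col19a1 is lowest in female Myf5High, and the other 7 are lower in females.

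The comparison of females with males, over both fractions, gave more calls among these genes. Of 44 members, 7 were called and all 7 were lower in females. They were the collagen IV chain Col4a1, the multiplexin collagens Col15a1 and Col18a1, the anchoring-fibril collagen Col7a1, the collagen VI chain Col6a6, the laminin gamma chain Lamc3, and Sparc. Over all genes 1.65% were called and 0.921% were lower. Of the 44, 33 had a log2 fold change below 0, against 51.3% of all genes, and the medians were -0.57 and -0.02. The 44 passed a filter that a gene can meet through the group where it is high, so these counts describe them only. If the libraries of a pair came from the same mice, 2 pools per sex stand behind this comparison. With the counts of each pair summed, 6 of the 7 were called (not Col7a1, edgeR adjusted p 0.056).

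The calls between the sexes depended on single libraries and on the size of difference tested. Without male Myf5Low replicate 1, 0 members were called, and without female Myf5Low replicate 2, 1 (Col6a6). Leaving out female Myf5High replicate 2 left 2 (Lamc3 and Col6a6), female Myf5High replicate 1 left 3 (those 2 and Col26a1), and female Myf5Low replicate 1 left 4 (Sparc, Col4a1, Col18a1 and Col6a6). Without male Myf5High replicate 2, 6 were called, with Sparc, Col18a1 and Col7a1 lost and Col1a1 and Col3a1 gained. Without male Myf5Low replicate 2, 5 were called, with Sparc and Col7a1 lost. Leaving out male Myf5High replicate 1 kept the calls of the full fit and added others. Among the added genes, Lama4 was lower in females (log2 fold change -1.20) and Hspg2 was higher in females (log2 fold change 0.69). Against a minimum fold of 1.5, 1 was called (Col6a6). The log2 fold changes of the 7 kept their sign in all of these.

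Of the 5 tested chains of collagen IV, the network collagen of basement membranes, 1 was called, and 4 had log2 fold changes below 0 in every alternative run. Col4a5, the other one, was at -0.03 (SE 0.970), and its sign turned in 4 of 15 alternatives (-0.55 to 2.93). Col4a1 (ENSMUSG00000031502, chromosome 8, 11198423 to 11312826) had 275 and 270.1 CPM in Myf5High females, 257 and 247 CPM in Myf5Low females, 502 and 502 CPM in Myf5High males and 591 and 369 CPM in Myf5Low males. All 4 female values lay below the lowest male value. Its level was 1.87-fold lower in females (log2 fold change -0.91 with SE 0.183, edgeR adjusted p 0.0135). Col4a2, which starts beside it in the sequences above, had 61.1 and 79.2 CPM in Myf5High females, 90.1 and 90.6 CPM in Myf5Low females, 131 and 118 CPM in Myf5High males and 130.4 and 115 CPM in Myf5Low males. It also did not overlap between the sexes but was not called (log2 fold change -0.63 with SE 0.189, edgeR adjusted p 0.108). DESeq2 called it (log2 fold change -0.64, adjusted p 0.0349). The exons of the pair overlap by 0.295% and 0.332% on opposite strands.

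Of the less abundant chains, Col4a4 had 0, 0.509, 0.549 and 1.41 CPM in the female libraries and 1.68, 7.56, 5.38 and 4.78 CPM in the male libraries and Col4a6 had 2.59, 2.55, 1.65 and 1.41 CPM in the female libraries and 2.64, 5.26, 5.82 and 3.82 CPM in the male libraries. Neither overlapped between the sexes and neither was called (edgeR adjusted p 0.186 and 0.595). Col4a5, at 2.59, 3.31, 3.30 and 4.70 CPM in the female libraries and 0, 3.94, 4.93 and 8.12 CPM in the male libraries, overlapped. Summed over the 6 chains, collagen IV was at 342 to 358 CPM in the 4 female libraries and at 501 to 738 CPM in the 4 male libraries.

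Both multiplexin collagens, which carry heparan sulfate or chondroitin sulfate chains at basement membranes, were lower in females. Col15a1 (ENSMUSG00000028339, chromosome 4, 47208161 to 47313167) had 78.9 and 66.7 CPM in Myf5High females, 50.3 and 52.9 CPM in Myf5Low females, 156 and 118 CPM in Myf5High males and 103 and 90.1 CPM in Myf5Low males. The sexes did not overlap (log2 fold change -0.91 with SE 0.197, edgeR adjusted p 0.0232). Col18a1, the source of endostatin (ENSMUSG00000001435, chromosome 10, 77052178 to 77166548), had 43.3 and 50.7 CPM in Myf5High females, 40.9 and 20.2 CPM in Myf5Low females, 93.2 and 119 CPM in Myf5High males and 63.6 and 50.2 CPM in Myf5Low males. Its sexes overlapped at 1 pair of libraries, female Myf5High replicate 2 and male Myf5Low replicate 2 (log2 fold change -1.04 with SE 0.245, edgeR adjusted p 0.0374). In both genes the Myf5High libraries of a sex lay above its Myf5Low libraries, without a call between the fractions (edgeR adjusted p 0.375 for Col15a1 and 0.205 for Col18a1).

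Col7a1, the collagen of anchoring fibrils (ENSMUSG00000025650, chromosome 9, 108953586 to 108984875), had 6.47 and 6.37 CPM in Myf5High females, 16.8 and 16.7 CPM in Myf5Low females, 16.3 and 25.0 CPM in Myf5High males and 36.5 and 31.1 CPM in Myf5Low males. Female Myf5High held the lowest pair and male Myf5Low the highest, and male Myf5High replicate 1 lay below both female Myf5Low values (log2 fold change -1.34 with SE 0.309, edgeR adjusted p 0.0316). Col6a6 (ENSMUSG00000043719, chromosome 9, 105687809 to 105828160) was at 2.91 and 4.33 CPM in Myf5High females, 1.65 and 2.82 CPM in Myf5Low females, 13.0 and 15.8 CPM in Myf5High males and 27.8 and 10.04 CPM in Myf5Low males. Its counts were 6 to 17 in females and 42 to 124 in males, with no overlap (log2 fold change -2.51 with SE 0.487, edgeR adjusted p 0.0111). The common collagen VI chains were not called between the sexes, with log2 fold changes of 0.12 for Col6a1, -0.23 for Col6a2 and -0.14 for Col6a3 (edgeR adjusted p 0.853, 0.764 and 0.896).

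Among the laminins, Lamc3, a gamma chain found at few basement membranes (ENSMUSG00000026840, chromosome 2, 31887291 to 31946539), had 0 and 3.06 CPM in Myf5High females, 3.85 and 6.12 CPM in Myf5Low females, 21.9 and 5.59 CPM in Myf5High males and 43.0 and 16.0 CPM in Myf5Low males. The sexes overlapped at female Myf5Low replicate 2 and male Myf5High replicate 2 (log2 fold change -2.81 with SE 0.610, edgeR adjusted p 0.0232). The size of this difference is uncertain: it was -5.65 without female Myf5High replicate 2, which leaves that group with the library at 0, and -2.16 without male Myf5High replicate 1. Lama2 was not called (log2 fold change 0.44 with SE 0.195, edgeR adjusted p 0.315). Lama3 had 7.44, 5.35, 13.7 and 11.1 CPM in the female libraries and 24.0, 13.5, 10.3 and 11.5 CPM in the male libraries, Lama4 had 20.1, 8.91, 9.89 and 9.88 CPM in the female libraries and 5.76, 27.6, 24.9 and 29.9 CPM in the male libraries, and Lama5 had 12.3, 6.62, 13.7 and 10.8 CPM in the female libraries and 15.4, 7.23, 8.29 and 9.80 CPM in the male libraries. Every alpha chain overlapped between the sexes, and none of the 4 was called (edgeR, with Lama2 alone at an unadjusted p under 0.05). Lamb1 had 26.8, 6.11, 15.7 and 21.4 CPM in the female libraries and 34.8, 17.8, 20.2 and 19.1 CPM in the male libraries. The beta chains had log2 fold changes of -0.39 (Lamb1) and 0.11 (Lamb2), and Lamc1 one of -0.29, none called.

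Sparc (ENSMUSG00000018593, chromosome 11, 55394500 to 55423183) had 2067 and 2421 CPM in Myf5High females, 2148 and 1826 CPM in Myf5Low females, 4013 and 4899.7 CPM in Myf5High males and 2699 and 2907 CPM in Myf5Low males. All female libraries lay below all male libraries, and male Myf5High was the highest group. Its level was 1.67-fold lower in females (log2 fold change -0.74 with SE 0.175, edgeR adjusted p 0.0365). Nid1, the other linker of laminin and collagen IV, and Agrn, the proteoglycan that clusters acetylcholine receptors, were not called (log2 fold changes -0.74 and -0.37, edgeR adjusted p 0.150 and 0.408). In all, 10 members had every female library below every male library, and this held for 3.5% of all genes tested. They were Sparc, Col4a1, Col4a2, Col4a4, Col4a6, Col15a1, Col6a6, Col26a1, Nid1 and Agrn. Hspg2 had the opposite sign (log2 fold change 0.48 with SE 0.196, edgeR adjusted p 0.269). Col1a1 and Col3a1 had log2 fold changes of -0.93 and -0.61 without a call (edgeR adjusted p 0.263 and 0.227). Without a filter on low counts, Col1a1, Col3a1 and Col11a1 were called as well.

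The summed endothelial markers were at lower levels in all 4 female libraries than in any male library. Col4a1, Col15a1 and Col18a1, which endothelial cells also make, had the same direction. Hspg2 had the opposite one (log2 fold change 0.48, not called). Between Myf5High and Myf5Low the median log2 fold change of the endothelial list was -0.57. It was 0.09 for Col4a1, 0.50 for Col15a1 and 0.76 for Col18a1, none of these genes called. The 12 genes of that list, all tested, summed to 379.9 to 457 CPM in Myf5High females, 543 to 713 in Myf5Low females, 774 to 821 in Myf5High males and 776 to 1326 in Myf5Low males. Of the 12, 2 were called and lower in females, Ptprb (log2 fold change -1.38 with SE 0.225, edgeR adjusted p 0.00243) and Egfl7 (log2 fold change -1.06 with SE 0.185, edgeR adjusted p 0.00493). The defining markers Pecam1 and Cdh5 were not called (edgeR adjusted p 0.501 and 0.181), at 32.3 to 129 and 6.62 to 29.1 CPM, and none of the list was at 0 in all libraries. Within males the orders differed: replicate 2 of Myf5Low had the highest endothelial sum, 1326 CPM, and the lowest Col4a1, 369 CPM. The fibroblast list overlapped between the sexes, at 1180.5 to 2134 CPM in females and 1436 to 2173 in males. No fibroblast, mural, glial, immune, tendon or muscle stem cell marker was called (edgeR, smallest adjusted p 0.108). Of the early genes of tissue dissociation, Btg2, Nr4a1 and Dusp1 were called higher in females, and of the commitment genes Mef2c and Myh3 were lower. The part of these cells and responses in the difference between the sexes was not tested.

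**Figure D4:**
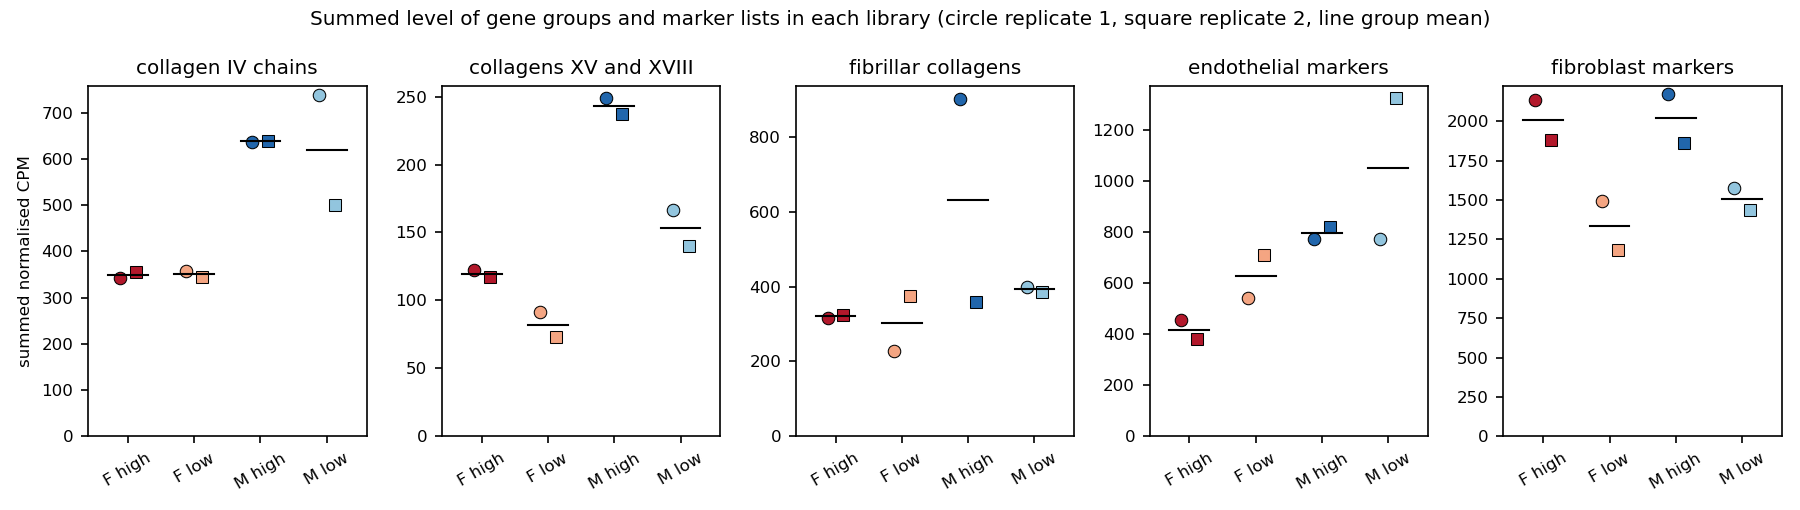
Summed normalised CPM, on linear axes from 0, of the collagen IV chains, collagens XV and XVIII, the fibrillar collagens, and the endothelial and fibroblast marker lists in each library (circle replicate 1, square replicate 2, line group mean). Collagen IV and collagens XV and XVIII are lower in all 4 female libraries, as are the endothelial markers, while the fibroblast sum, of which 1 of 10 tested genes was called, lies higher in Myf5High, and male Myf5High replicate 1 stands out at 902 CPM for fibrillar collagens.

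The partners of these genes were read from lists of receptors, maturation enzymes, binding proteins and proteases. No matrix receptor of 22 tested was called in any of the 5 comparisons (edgeR, smallest adjusted p 0.131, between the sexes). With the pair as a replicate block 1 receptor, the laminin-binding integrin chain Itgb4, was called lower in Myf5High (edgeR adjusted p 0.0421, against 0.137 without). The most abundant were Dag1 (dystroglycan, mean 1144 CPM), Sdc4 (syndecan 4, 435 CPM), Itgb1 (integrin beta 1, 336 CPM) and Ddr1 (a collagen receptor kinase, 199 CPM). Of 25 tested genes of collagen maturation, 2 were called between the fractions and both were higher in Myf5High. Bmp1, the protease that cuts procollagen ends and whose work Pcolce2 enhances, had 173 and 181 CPM in Myf5High females, 78.3 and 60.2 CPM in Myf5Low females, 179 and 255 CPM in Myf5High males and 98.3 and 93.4 CPM in Myf5Low males (log2 fold change 1.26 with SE 0.192, edgeR adjusted p 0.00130). Loxl2, a crosslinking enzyme, had 41.7 and 34.6 CPM in Myf5High females, 8.52 and 8.94 CPM in Myf5Low females, 46.8 and 31.9 CPM in Myf5High males and 7.62 and 7.64 CPM in Myf5Low males (log2 fold change 2.24 with SE 0.294, edgeR adjusted p 0.000324). For both genes every Myf5High library lay above every Myf5Low library. In females both were also called, Bmp1 at 1.35 (edgeR adjusted p 0.0364, and 0.0664 with the pair as a replicate block) and Loxl2 at 2.12 (edgeR adjusted p 0.0295). In males Loxl2 was called at 2.36 (edgeR adjusted p 0.0198).

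The list's medians were 0.31 between the fractions and 0.07 between the sexes, against -0.02 over all genes in each. Serpinh1, the collagen chaperone of the endoplasmic reticulum, was the maturation gene called between the sexes and was higher in females, opposite to the called collagens. It had 1468 and 1243 CPM in Myf5High females, 656 and 621 CPM in Myf5Low females, 719.7 and 413 CPM in Myf5High males and 479.6 and 459 CPM in Myf5Low males (log2 fold change 0.85 with SE 0.191, edgeR adjusted p 0.0279). Female Myf5High held its highest values, and male Myf5High replicate 1 overlapped the female Myf5Low libraries.

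Of 22 tested matrix binders, Fbn1 (fibrillin 1) was called higher in Myf5High, at 177 and 169 CPM in Myf5High females, 91.5 and 68.7 CPM in Myf5Low females, 256 and 285 CPM in Myf5High males and 141 and 121 CPM in Myf5Low males (log2 fold change 1.08 with SE 0.183, edgeR adjusted p 0.00375). Smoc1, a calcium-binding protein of basement membranes, was called lower, at 4.53 and 4.84 CPM in Myf5High females, 23.9 and 16.9 CPM in Myf5Low females, 10.1 and 7.56 CPM in Myf5High males and 24.4 and 26.5 CPM in Myf5Low males (log2 fold change -1.82 with SE 0.349, edgeR adjusted p 0.01002). Between the sexes no binder was called (edgeR, smallest adjusted p 0.0596), and their median log2 fold change was -0.60. Among the tested proteases and inhibitors, Timp3 and Timp4, inhibitors of metalloproteinases, were called and lower in females. Timp3 gave -0.92 on the log2 scale (edgeR adjusted p 0.0118), and Timp4 gave -1.40 (edgeR adjusted p 0.00869).

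Fn1, which encodes fibronectin, had 41.1, 39.5, 32.1 and 39.7 CPM in the female libraries and 56.7, 36.8, 43.0 and 45.6 CPM in the male libraries. Its groups overlapped in both contrasts, and it was called in no comparison. Tnc, Col8a1, Col11a1, Col12a1, Col14a1, Col17a1, Col20a1, Col23a1, Col26a1 and Col27a1 lay between 0 and 21.0 CPM and were also called in none of the 5 comparisons. Of these, Col26a1 had every female library below every male library (log2 fold change -1.16 with SE 0.449, edgeR adjusted p 0.243).

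The remaining 17 members did not pass the filter, and 4 of them, Col9a1, Col6a4, Lama1 and Col10a1, had 0 counts in all libraries. The others were the cartilage collagens Col2a1, Col9a2, Col9a3 and Col11a2, the chains Col4a3, Col6a5 and Lamb3, and Col8a2, Col13a1, Col22a1, Col24a1, Col25a1 and Col28a1. Col13a1 was the highest of them, with 37 counts over the 8 libraries. At this depth differences in these genes were not detectable.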

How the data were processed

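The authors deposited a table of whole-number read counts per gene for the 8 libraries. The counts were made with HTSeq on GRCm38, per the submitters' processing notes, and the aligner, annotation release and strand setting are not given in the sources used here. All columns were used. Reads assigned to no feature (41.96% to 45.3%) and ambiguous reads (0.248% to 0.296%) were left out of library sizes and tests. Symbols, exon lengths and gene positions came from GENCODE M21, which matched 27518 of 27554 genes.

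Genes were filtered with filterByExpr (minimum count 10, minimum total 15), scaled by TMM and fitted with 1 mean per group in edgeR 4.0.16 under R 4.3.3. The quasi-likelihood test gave all p-values, adjusted by Benjamini-Hochberg over 11730 genes. CPM was computed here. DESeq2 1.42.0 was an alternative, as were other scalings, filters, a minimum fold, a replicate block, summed pairs and leaving out each library.

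Values in every library were given for members called in any comparison, for Col6a1, Col1a1 and Pcolce2, for the 5 highest per kb, and for tested chains of collagen IV, collagen VI and laminin. For the partner and marker lists, called genes and the most abundant ones were named. A few genes that these rules name are not reported here. The members and lists were chosen with earlier results of these data known. The labels give each library a pool name of sex, number and fraction. Libraries that share sex and number were paired as the likely same mice, which the labels do not say outright. Deviations from the group means correlated at 0.0275 in the female and 0.000373 in the male pairs, which gives no sign of pairing.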

Additional observations from a re-analysis of the deposited data

Results flagged for a closer look

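In groups of 4 libraries, 9 of 112 arms held a library far from the other 3 (by Dixon's test at the 95% level). Each arm mixed groups, and the arms of a gene shared libraries, so the share that chance would flag is not known. Male Myf5High replicate 1 was high in 4 of the 9. Among the Myf5High libraries it had 243.504 CPM of Col1a1, against 38.484 to 60.849 in the other 3. Col3a1 was at 580.663 CPM there, against 223.792 to 274.856, and Col6a2 at 103.261 CPM, against 41.426 to 45.573. Among the male libraries its Lamb1 was 34.821 CPM, against 17.754 to 20.162.

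Male Myf5High replicate 2 had 5.26 CPM of Col4a6, against 2.546 to 2.642 in the other Myf5High libraries. Its Col19a1 was 99.619 CPM, against 86.023 to 87.922 in the other males. Male Myf5Low replicate 2 was low for Col6a2, at 23.892 CPM against 33.155 to 34.338 in the other Myf5Low libraries. Female Myf5Low replicate 1 had 159.327 CPM of Lama2, against 108.664 to 113.009 in the other Myf5Low libraries. Female Myf5High replicate 1 had 20.051 CPM of Lama4, against 8.911 to 9.889 in the other females.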

How the results depend on the processing

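Between the fractions, 2 members were called, and 1 under a mean of at least 50 counts (which removes Pcolce2), against a minimum fold of 1.5, and in an additive model chosen after seeing the data. Leaving out each library gave 1 to 5. In females, 2 became 1 under that filter, that fold and the replicate block, and 3 with DESeq2 and without a filter (both adding Col16a1), and leaving out libraries gave 0 to 3. In males, 0 became 1 (Col6a2) without a filter, and leaving out libraries gave 0 to 1. Between the sexes, 7 became 1 against that fold, and leaving out libraries gave 0 to 10. The interaction gave 0 members under every alternative run. The paired fit with the pair as a replicate block kept both members between the fractions, and of the members it changed the call of Col19a1 in females alone. With a library left out, the lone library of its group is assumed to vary like the others.

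Over all genes, 141 calls between the fractions became 291 without a filter, 234 with DESeq2 and 44 against the minimum fold. The same 3 settings moved the female count from 39 to 167, 111 and 19, the male count from 20 to 111, 80 and 7, and that between the sexes from 194 to 477, 371 and 44. Fits of only the libraries compared gave 77 in females and 2 in males. The interaction went from 0 to 14 without a filter and 2 with DESeq2. Leaving out libraries gave 82 to 243 between the fractions, 9 to 117 in females, 8 to 74 in males, 82 to 558 between the sexes and 0 to 8 for the interaction. The cause of these changes was not tested. Depth limits members under about 1 CPM, near 3 counts.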
